A study of Mus musculus with 6 samples.

Results

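The genes described here are 30 enzymes of glucose breakdown: 21 enzymes and regulators of glycolysis, and 9 enzymes of the pentose phosphate pathway together with the synthetases that use its product. They were taken by gene symbol from a list of enzymes and not by a cut on measured values, though earlier results of these data were known. All 30 were found among the 35458 gene identifiers in the files. RNA-seq of splenic CD8+ T cells of the mouse covered 3 control libraries, genotype Cd4cre, and 3 knockout (KO) libraries, genotype Cd4creGlut10fl/fl. Both groups therefore carry the Cd4cre transgene, and the KO mice also carry floxed alleles of Glut10, the protein product of Slc2a10, a facilitative hexose transporter. The Cd4 promoter switches Cre on while T cells develop, so RNA from other cell types would come from an undeleted gene. Age, sex and whether each library is its own mouse are not in the labels, so p-values reflect library-to-library spread only, which may be technical.

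Glycolysis turns glucose into pyruvate. Hexokinase traps glucose in the cell as a phosphate ester, phosphofructokinase commits it to breakdown, and the later enzymes, from triose phosphate isomerase to pyruvate kinase, harvest ATP. The pentose phosphate pathway branches off after hexokinase: its oxidative arm yields NADPH, used against oxidants and for lipid synthesis, and its non-oxidative arm interconverts sugars and supplies ribose for nucleotides. T cells raise glycolysis when activated, while neutrophils lean on both routes, the pentose phosphate arm feeding their oxidative burst. Several steps are served by isoenzymes encoded by separate genes with different tissue patterns, and these are described isoform by isoform below.

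All values are FPKM, fragments per kilobase of gene and scaled to the library's total. For most genes the length is that of all annotated exons and not of 1 transcript. Levels and isoform shares compared between genes therefore depend on the annotation. The depth implied by the values was lowest in KO 1 and 3: 1 read in 1 kb is worth 0.292 FPKM in KO 1 and 0.333 FPKM in KO 3, against 0.0665 to 0.0845 FPKM in the other 4 libraries. KO 1 and KO 3 also held the most genes at 1 FPKM or more, 18934 and 19268 against 12200 to 13713 in the other 4 libraries. Slc2a10, the targeted gene, was near the detection limit at 0.0946, 0.0373 and 0.0373 FPKM in control 1, 2 and 3 and was listed at 0 in the 3 KO libraries. The control values rest on 4, 2 and 2 implied reads. With so few reads, and the lower depth of KO 1 and 3, these values cannot show whether the gene was deleted. All 16 T cell and CD8 markers were above 0 in every library, with summed levels of 2758, 1059.6 and 754 FPKM in control 1, 2 and 3, against 2797, 4238 and 3157 in KO 1, 2 and 3. All 12 neutrophil markers were also above 0 in every library. Their sum was 440.2, 16770.5 and 29268 FPKM in control 1, 2 and 3, against 269, 72.4 and 708 FPKM in KO 1, 2 and 3. The 12 macrophage markers summed to 2001, 4422 and 4567 FPKM in the controls, against 917, 329 and 2126 in KO 1, 2 and 3. Most of that sum was Lyz2, at 1700, 3932 and 4208 FPKM in the controls, against 628, 254 and 1590 in the KO libraries. Lyz2 was the only 1 of the 12 without overlap between groups, and C1qa, C1qb and C1qc were highest in KO 3. The 8 erythroid markers summed to 6.07, 2211 and 1009.5 FPKM in the controls, against 4.03, 2.63 and 33.96 in the KO libraries. The 8 B cell markers summed to 16.7 to 50.3 FPKM in the controls and 55.04 to 80.96 FPKM in the KO libraries. The 5 NK cell markers summed to 3.74 to 32.3 and 13.2 to 35.9 FPKM, and the 3 CD4 T cell genes to 14.7 to 30.1 and 4.30 to 9.42 FPKM. Every KO library lay below every control for 4 of the 12 neutrophil markers (Mmp8, Cxcr2, Csf3r and Ly6g), against 9.44% of all genes tested. For 7 of the 16 T cell and CD8 markers every KO library lay above every control, against 6.70% of all genes. The rest of both lists overlapped. Control 2 and 3 thus stood apart most, by neutrophil and erythroid RNA, and KO 1 and 3 by low depth and many genes at low level. Estimates are therefore also given with either pair left out, in the text for the enzymes that turn on it and in the plot of estimates for all 30. Those fits leave 1 library in a group, assumed to vary like the other group, and are given as estimates with no p. The fit without control 2 and 3 still compares libraries that differ in these markers.

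Of the 30 enzymes, 23 had a lower and 7 a higher estimate in the KO cells, but 0 passed limma at an adjusted p of 0.05, where 0% of all 13956 genes tested passed in either direction. Of all genes tested, 43.1% had lower and 56.9% higher estimates. After quantile normalization 24 of the 30 enzymes and 57.8% of all genes were lower. With control 2 and 3 left out the enzymes numbered 19 lower, against 55.1% of all genes, and with KO 1 and 3 left out 17, against 49.1%. Over all genes, 1646 had an unadjusted limma p under 0.05, and limma-voom on implied reads also called 0. At an unadjusted limma p under 0.05, 8 enzymes were lower (Hk2, Hk3, Gapdh, Pgam1, G6pdx, Pgd, Rpe and Tkt), against 6.46% of all genes lower at that p. The 1 enzyme higher at that p was Eno3, against 5.33% of all genes. The background moved with this count of 8: leaving out control 1 gave 12 enzymes and 10.0% of all genes, control 2 gave 4 and 2.48%, and control 3 gave 3 and 2.26%. Leaving out KO 1 gave 3 enzymes and 3.35% of all genes, KO 2 gave 10 and 7.56%, and KO 3 gave 4 and 4.06%. Without control 2 and 3 together it was 0 enzymes and 0.781% of all genes, and without KO 1 and 3 together 3 and 4.16%. Every KO library lay below every control for 6 enzymes (Hk2, Hk3, Pfkl, Pgam1, G6pdx and Tkt), against 9.44% of all genes. Every KO library lay above every control for Eno3, against 6.70% of all genes. Pfkfb1 was ordered the same way but passed the filter on low values only through its KO libraries, so that order is a description. The count of 6 was 15 without control 1 and 16 without KO 2, when 17.9% and 18.0% of all genes lay lower in this way. It stayed at 6 without control 2 or control 3 and was 8 without KO 1 or KO 3, against at most 13.2% of all genes. Without control 2 and 3 together it was 7 of the 30, against 27.0% of all genes. Without KO 1 and 3 together it was 11 of the 30, against 29.1%. The size of this count thus depended on the libraries kept. The median log2 difference of the 30 was -0.39, against 0.10 for all genes tested, and quantile normalization moved these to -0.57 and -0.12. Leaving out KO 2 gave a median of -0.66, against 0.07 for all genes. Leaving out control 2 and 3 gave -0.22, against -0.06, and leaving out KO 1 and 3 gave -0.16, against 0.01. Differences are of mean log2(FPKM + 1) throughout, KO minus control, which understates the change of low genes.

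**Figure D1:**
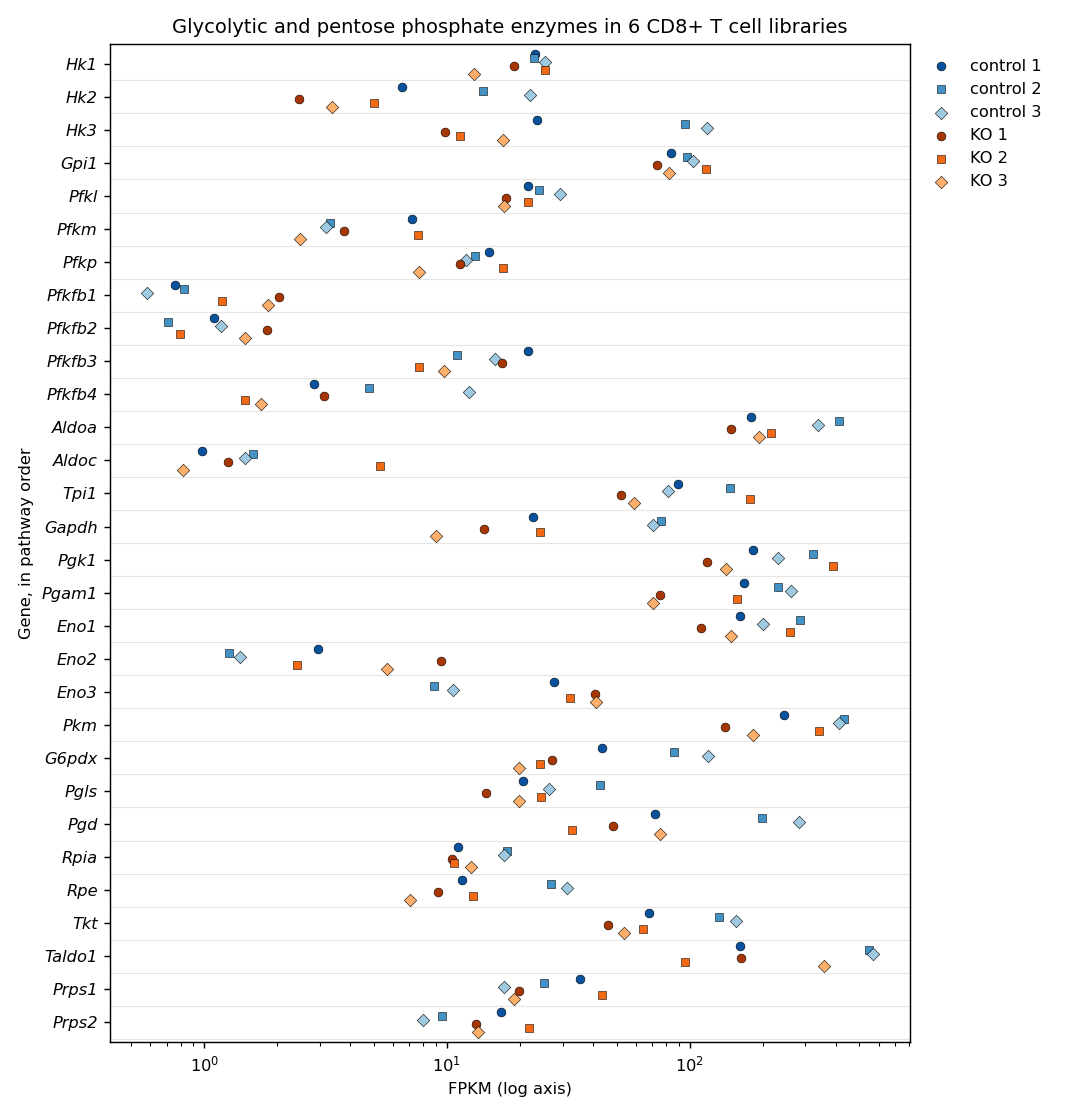
FPKM of each of the 30 enzymes (log axis) in every library; blue marks are the 3 controls and orange marks the 3 KO libraries, 1 mark per library. Hk3, G6pdx, Pgd and Taldo1 show control 2 and 3 far to the right, and Pgk1, Tpi1 and Aldoc show KO 2 furthest to the right.

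Promoter sequence is shown for 5 enzymes that hold one of the motifs marked below: Hk2, Hk3, Pgam1 and G6pdx, which were lower in every KO library than in every control, and Pgk1, which was highest in KO 2. Pfkl and Tkt, also lower in every KO library, hold neither ACGTG nor TGACNNNGC in their windows and are not shown. The sequences are the 250 bases before the gene start from RefSeq, build GRCm38.p6, 5′ to 3′ on the gene's strand. The submitters' notes name another build, and these coordinates were not used with the expression values. Capitals mark ACGTG, or its reverse complement, in Hk2, Hk3, Pgam1 and Pgk1, the core of sites bound by HIF-1, which also lies inside the CACGTG site of MYC and USF. In G6pdx capitals mark the reverse complement of TGACNNNGC, the core of the antioxidant response element bound by NRF2.
Hk2, chr6:82774455-82774704, minus strand: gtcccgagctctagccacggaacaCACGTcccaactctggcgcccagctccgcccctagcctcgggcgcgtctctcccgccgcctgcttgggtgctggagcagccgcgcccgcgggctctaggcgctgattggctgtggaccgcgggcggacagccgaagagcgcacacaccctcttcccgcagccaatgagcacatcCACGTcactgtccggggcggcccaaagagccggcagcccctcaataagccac
Hk3, chr13:55021386-55021635, minus strand: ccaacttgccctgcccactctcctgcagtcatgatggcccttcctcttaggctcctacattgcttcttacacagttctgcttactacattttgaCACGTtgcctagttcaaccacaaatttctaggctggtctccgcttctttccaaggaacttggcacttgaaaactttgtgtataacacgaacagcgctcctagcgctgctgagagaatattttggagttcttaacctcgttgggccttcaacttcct
Pgam1, chr19:41911621-41911870, plus strand: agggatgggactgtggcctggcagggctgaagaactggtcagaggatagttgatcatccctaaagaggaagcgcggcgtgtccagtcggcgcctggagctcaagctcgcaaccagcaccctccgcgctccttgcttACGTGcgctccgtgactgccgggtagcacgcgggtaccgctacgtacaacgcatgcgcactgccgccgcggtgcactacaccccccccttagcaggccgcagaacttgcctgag
Pgk1, chrX:106186850-106187099, plus strand: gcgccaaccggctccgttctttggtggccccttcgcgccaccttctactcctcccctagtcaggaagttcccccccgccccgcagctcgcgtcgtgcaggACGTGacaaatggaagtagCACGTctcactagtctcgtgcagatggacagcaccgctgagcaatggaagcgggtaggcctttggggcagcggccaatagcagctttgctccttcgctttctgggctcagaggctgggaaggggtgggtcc
G6pdx, chrX:74428881-74429130, minus strand: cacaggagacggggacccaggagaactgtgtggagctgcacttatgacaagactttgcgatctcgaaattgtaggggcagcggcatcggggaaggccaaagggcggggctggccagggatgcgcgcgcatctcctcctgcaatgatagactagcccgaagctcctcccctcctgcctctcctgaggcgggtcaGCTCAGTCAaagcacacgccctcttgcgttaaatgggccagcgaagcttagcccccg
ACGTG occurred in the windows of 9 of the 30 enzymes (Hk2, Hk3, Pfkm, Pfkfb2, Pfkfb3, Aldoa, Pgk1, Pgam1 and Pkm). By window, 13 of 47 held it, or 27.7%, against 16.6% of all 32851 promoter windows of this length. CACGTG was in 6.38% of the enzymes' windows and 6.02% of all windows, and TGACNNNGC in 6.38% and 10.2%. GGGCGG, the GC box bound by SP1, was in 51.1% and 32.7%. Several windows belong to 1 gene, and a match describes letters, not binding.

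Of the 3 hexokinases, the first step, Hk2 and Hk3 were lower in every KO library than in every control, and Hk1 overlapped. Hk3 (ENSMUSG00000025877), the isoenzyme known for its expression in myeloid cells, measured 23.5, 95.5 and 118 FPKM in control 1, 2 and 3, against 9.85, 11.4 and 16.99 in KO 1, 2 and 3. Control 2 and 3 were high, and no KO library reached control 1. The means were 78.9 ± 49.3 and 12.7 ± 3.77 FPKM (SD, n = 3 each), with a log2 difference of -2.29 (SE 0.62, limma adjusted p = 0.417), and -0.87 without control 2 and 3 but -2.41 without KO 1 and 3. Without control 1, which leaves only control 2 and 3 as controls, it was -2.998 and passed (limma adjusted p = 0.0233), when 1.55% of all genes passed lower. The neutrophil sum was also highest in control 2 and 3, and its part in this difference was not tested. In these bulk samples, fewer cells of a type and less RNA per cell cannot be told apart.

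Hk2 (ENSMUSG00000000628), the inducible isoenzyme of activated and proliferating cells, measured 6.52, 14.03 and 21.99 FPKM in the controls, against 2.45, 4.997 and 3.35 in KO 1, 2 and 3. The groups did not overlap, although control 1 lay close to KO 2. The log2 difference was -1.62 (SE 0.47, limma adjusted p = 0.417), -0.75 without control 2 and 3 and -1.20 without KO 1 and 3. In KO 1 and KO 3 these levels rest on 50 and 60 implied reads. Hk1, the housekeeping isoenzyme, was nearly level at 23.02, 22.8 and 25.3 FPKM in the controls and overlapped them at 18.9, 25.4 and 12.9 FPKM in the KO libraries. Its estimate of -0.35 (SE 0.28) was 0.09 without KO 1 and 3.

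The share of each isoform within its family does not depend on how a library was scaled. Hk3 made up 44.3%, 72.2% and 71.3% of the summed hexokinase FPKM in control 1, 2 and 3, but 31.5%, 27.2% and 51.1% in KO 1, 2 and 3. Hk1 made up 43.4%, 17.2% and 15.3% and then 60.6%, 60.8% and 38.8%. Hk2 held 10.6% to 13.3% in the controls and 7.85% to 11.98% in the KO libraries. Control 1 thus had a hexokinase mix nearer to the KO libraries than to control 2 and 3. No hexokinase share passed a two-sided exact permutation test (p = 0.2 for each, Benjamini-Hochberg adjusted p = 0.333 over 15 isoforms compared), and 0.1 is the smallest p that 3 against 3 libraries allow.

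**Figure D2:**
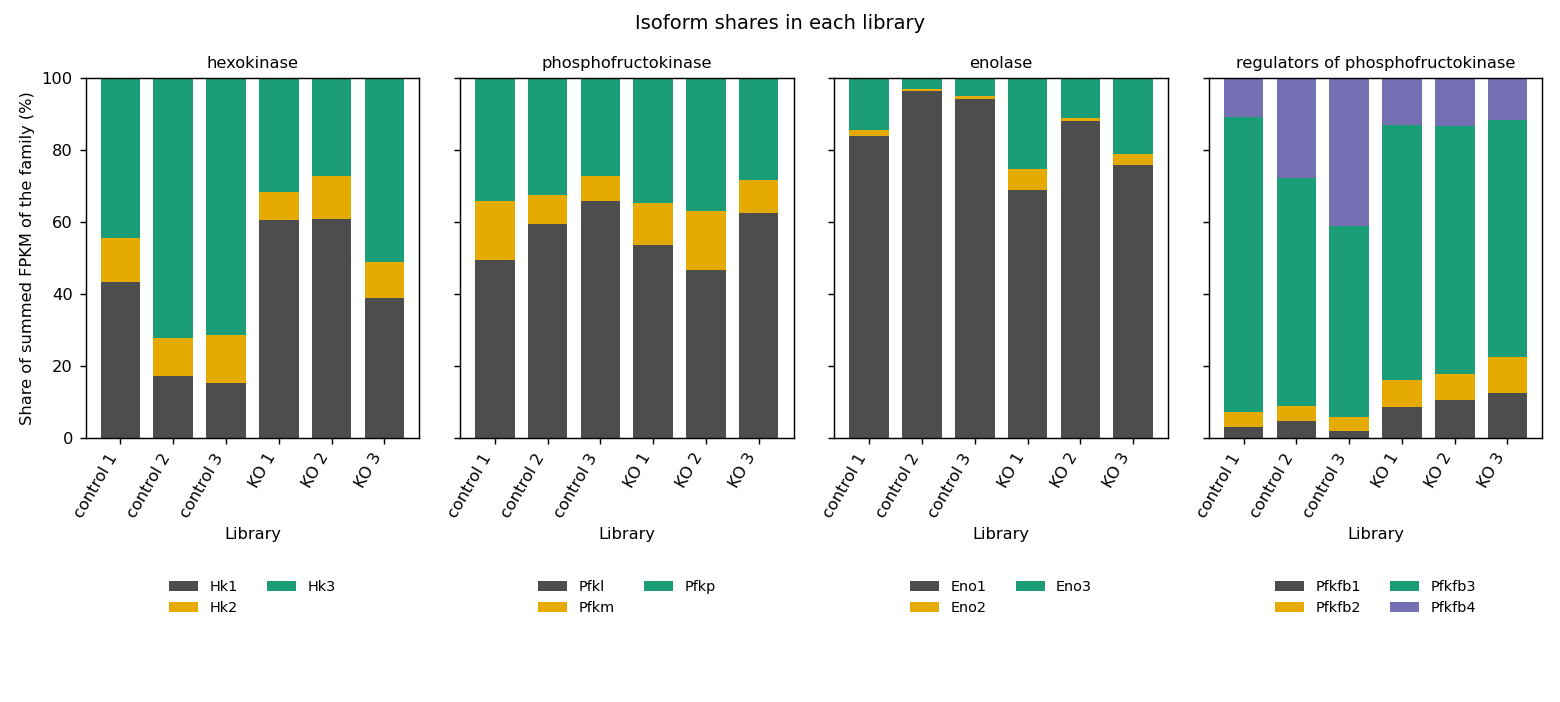
Share of each isoform in the summed FPKM of its family (percent), 1 stacked bar per library, for hexokinases, phosphofructokinases, enolases and the Pfkfb regulators. Hk3 fills 72.2% and 71.3% of the hexokinase bars of control 2 and 3, and Eno3 fills 25.1% and 21.1% of the enolase bars of KO 1 and 3.

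Gpi1, the isomerase that follows hexokinase and stands at the fork with the pentose phosphate pathway, was nearly level at 83.7, 97.7 and 103 FPKM in the controls, against 73.3, 117 and 82.3 in the KO libraries. Its estimate was -0.08 (SE 0.24), and 0.31 without KO 1 and 3.

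Phosphofructokinase showed a liver-type and platelet-type mix with little of the muscle type. Pfkl, the liver-type subunit, measured 21.7, 23.9 and 29.2 FPKM in the controls, against 17.5, 21.6 and 17.1 in the KO libraries. The groups did not overlap, though control 1 and KO 2 were nearly equal, and the log2 difference was -0.39 (SE 0.21, limma adjusted p = 0.423). Pfkp, the platelet-type subunit, measured 14.9, 13.02 and 11.97 FPKM and then 11.3, 17.00 and 7.70 FPKM, with KO 2 highest and KO 3 lowest of all. Pfkm, the muscle-type subunit, measured 7.20, 3.29 and 3.17 FPKM and 3.76, 7.58 and 2.48 FPKM. Here control 1 and KO 2 were the high libraries. The estimates of Pfkp and Pfkm were -0.19 (SE 0.31) and -0.02 (SE 0.46), and 0.34 and 0.70 without KO 1 and 3. Pfkl held 46.7% to 65.8% of the family over the 6 libraries, Pfkp 27.01% to 36.8% and Pfkm 7.16% to 16.5%, and each share overlapped between groups (exact permutation p = 0.7, 0.5 and 0.6). These shares depend on annotated length. By implied reads, Pfkp exceeded Pfkl in control 1 (2357 against 1713), control 2, KO 1 and KO 2 (3345 against 2114). Pfkl had more in control 3 (2928 against 2412) and KO 3 (343 against 310).

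The Pfkfb genes encode bifunctional enzymes that make and remove fructose 2,6-bisphosphate, the activator of phosphofructokinase. Pfkfb3, the form in which kinase activity most outweighs phosphatase activity, was the most abundant. It measured 21.5, 10.97 and 15.8 FPKM in the controls, against 16.9, 7.70 and 9.68 in the KO libraries. Pfkfb4 measured 2.84, 4.78 and 12.3 FPKM and 3.12, 1.47 and 1.71 FPKM, with control 3 alone far above the rest. Their log2 differences were -0.48 (SE 0.37) and -1.14 (SE 0.52), with limma adjusted p of 0.525 and 0.417, and that of Pfkfb4 was -0.64 without control 3. Pfkfb1 was low, at 0.757, 0.829 and 0.579 FPKM in the controls, against 2.04, 1.19 and 1.82 in the KO libraries, or 22 to 70 implied reads per library. It passed the filter of 1 FPKM in 3 libraries only through the KO group, where it is high, so the absence of overlap is no support. Its log2 difference was 0.63 (SE 0.27, limma adjusted p = 0.417), and 0.35 without KO 1 and 3. The mean level of 812 genes for smell receptors (olfactory and vomeronasal families) was 0.994 and 1.05 FPKM in KO 1 and 3 and 0.0188 to 0.0800 FPKM in the other 4 libraries. How far such low-level signal enters Pfkfb1 was not tested. Pfkfb2 stayed between 0.707 and 1.81 FPKM, with an estimate of 0.23 (SE 0.30).

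Within the Pfkfb family, Pfkfb1 held 2.89%, 4.79% and 1.94% in the controls and 8.55%, 10.6% and 12.4% in KO 1, 2 and 3. Pfkfb2 held 4.17%, 4.09% and 3.93% and then 7.61%, 7.16% and 10.0%. The Pfkfb2 shares did not overlap between groups and reached the smallest possible exact permutation p of 0.1 (adjusted p = 0.333). In KO 1 and 3 they rest on 45 and 32 implied reads, and how far low-level signal enters them was not tested. In KO 2 the level of Pfkfb2, 0.798 FPKM, lay within the control range of 0.707 to 1.17, and the family sum was the lowest of all libraries at 11.2 FPKM. The shares of Pfkfb1 are a description only, for the reason given for its level. Pfkfb4 held 10.8%, 27.7% and 41.1% in the controls and 11.6% to 13.2% in the KO libraries, so control 1 lay below the KO range and control 2 and 3 above it.

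Aldolase was almost wholly Aldoa, which splits the sugar into triose phosphates and measured 178, 414 and 337 FPKM in the controls, against 149, 215 and 194 in the KO libraries. Control 2 and 3 were high and control 1 lay among the KO libraries, so the log2 difference of -0.66 (SE 0.36, limma adjusted p = 0.423) was 0.04 without control 2 and 3. Aldoc, the brain-type form, measured 0.984, 1.59 and 1.47 FPKM and 1.25, 5.28 and 0.816 FPKM, KO 2 being the only high library. In KO 1 and 3 it rests on 14 and 8 implied reads.

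In the stretch from triose phosphate to pyruvate, Pgk1, Pgam1, Eno1 and Pkm were among the abundant enzymes, and Gapdh, Eno2 and Eno3 had lower levels than these in every library. Pgk1, which makes the first ATP of the pathway, measured 183, 323 and 231 FPKM in the controls, against 118, 391 and 141 in KO 1, 2 and 3. Tpi1, the triose phosphate isomerase, measured 89.1, 147 and 81.5 FPKM and 52.04, 177 and 58.8 FPKM. For both enzymes KO 2 was the highest of all 6 libraries and KO 1 and 3 the lowest. Their log2 differences of -0.35 (SE 0.50) and -0.32 (SE 0.51) became 0.71 and 0.79 without KO 1 and 3, so their direction rests on those libraries.

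Pgam1 (ENSMUSG00000011752), the mutase of the next step, was lower in every KO library than in every control, at 167, 232 and 261 FPKM in the controls, against 75.7, 156 and 70.9 in the KO libraries. KO 2 again lay above KO 1 and 3 and came close to control 1. The means were 220.0 ± 47.9 and 101 ± 47.8 FPKM (SD, n = 3 each), and the log2 difference was -1.19 (SE 0.37, limma adjusted p = 0.417). Leaving out control 2 and 3 gave -0.82 and leaving out KO 1 and 3 gave -0.47, and without KO 2 it was -1.55 and passed (limma adjusted p = 0.0205), when 0.960% of all genes passed lower.

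Gapdh, often used as a reference gene, was not level across these libraries. It measured 22.6, 76.03 and 70.4 FPKM in the controls, against 14.1, 24.1 and 9.02 in the KO libraries, a log2 difference of -1.70 (SE 0.56, limma adjusted p = 0.417). Control 2 and 3 were high, control 1 lay between KO 2 and KO 1, and leaving out control 2 and 3 gave -0.60, and leaving out KO 1 and 3 gave -1.01. The level of Gapdh was below that of Tpi1 and Pgk1 in every library. The authors' FPKM of Gapdh gives whole reads in all 6 libraries when multiplied by its summed exon length of 4133 bases, so the level is per base of all annotated exons and not of 1 transcript. Gapdh has many processed copies in the mouse genome, and reads shared with them would leave its level uncertain.

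Enolase was mainly Eno1, the form found in most tissues, at 161, 284 and 201 FPKM in the controls, against 112, 259 and 148 in the KO libraries, with an estimate of -0.36 (SE 0.38) that was 0.31 without KO 1 and 3. The other two forms pointed the opposite way. Eno3 (ENSMUSG00000060600), the muscle form, measured 27.6, 8.84 and 10.6 FPKM in the controls, against 40.7, 32.1 and 41.1 in the KO libraries. Every KO library was above every control, control 1 lay nearest to the KO range, and control 2 and 3 were low. The means were 15.7 ± 10.4 and 37.98 ± 5.09 FPKM (SD, n = 3 each), with a log2 difference of 1.38 (SE 0.43, limma adjusted p = 0.417). Leaving out control 2 and 3 gave 0.44 and leaving out KO 1 and 3 gave 1.16. Without control 1 the difference was 1.86 and passed (limma adjusted p = 0.0281), when 1.05% of all genes passed higher. The controls kept in that fit, control 2 and 3, had the highest neutrophil and the lowest T cell sums, whose part was not tested.

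Eno2, the neuronal form, measured 2.94, 1.26 and 1.40 FPKM in the controls, against 9.45, 2.42 and 5.66 in KO 1, 2 and 3. KO 1 and 3 were high and KO 2 lay within the control range. The log2 difference was 1.16 (SE 0.49, limma adjusted p = 0.417) and 0.30 without KO 1 and 3. Without KO 2 it was 1.59 (limma adjusted p = 0.0431), when 12.1% of all genes passed higher. The sensory receptor genes above were also highest in KO 1 and 3, and their part in Eno2 was not tested. Of the summed enolase FPKM, Eno3 held 14.4%, 3.01% and 4.98% in the controls and 25.1%, 10.9% and 21.1% in the KO libraries, and Eno1 held 84.1%, 96.6% and 94.4% and then 69.02%, 88.3% and 76.01%. These shares overlapped, with an exact permutation p of 0.2 each (adjusted p = 0.333).

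Pkm, the pyruvate kinase gene and the last step, had the highest level of the 30 in control 1 and ranked 2 or 3 elsewhere. It measured 244, 433 and 411 FPKM in the controls, against 140.4, 342 and 182 in the KO libraries, with control 1 and KO 2 in between. The log2 difference was -0.77 (SE 0.41, limma adjusted p = 0.421), and it was -0.24 with control 2 and 3 left out and -0.04 with KO 1 and 3 left out. The values do not separate its splice forms.

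The pentose phosphate enzymes gave the more uniform picture only with the 2 synthetases, which had higher estimates, set aside. The other 7 all had lower estimates, as did 43.1% of all genes tested. Their median was -1.05, against -0.35 for the 21 genes of glycolysis. In all 7, control 2 and 3 were the highest libraries, as in 8 of the 21 glycolysis genes and 15.4% of all genes tested. The median of the 7 was -0.79 without KO 1 and 3, where that of glycolysis was 0.09. Without control 2 and 3 both medians were small, -0.27 and -0.21, and the estimates of Taldo1 and Rpia were 0.14 and 0.02. Whether neutrophil RNA accounts for the height of control 2 and 3 was not tested.

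G6pdx (ENSMUSG00000031400), which starts the oxidative arm and sets its rate, had the smallest p of the 30. It measured 43.6, 86.5 and 119 FPKM in the controls, against 27.1, 24.3 and 19.8 in the KO libraries. The KO libraries were close together, and all lay below control 1. The means were 83.1 ± 37.9 and 23.7 ± 3.67 FPKM (SD, n = 3 each), with a log2 difference of -1.66 (SE 0.38, limma adjusted p = 0.417). Leaving out control 2 and 3 gave -0.86, and leaving out KO 1 and 3 gave -1.62. Without control 1 it was -2.06 and passed (limma adjusted p = 0.0281), when 1.55% of all genes passed lower. That fit keeps as controls only control 2 and 3, where the neutrophil sum was highest, and the part of neutrophil RNA was not tested.

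Pgd, the second NADPH-producing enzyme, measured 72.1, 199 and 281 FPKM in the controls, against 48.5, 32.8 and 75.8 in the KO libraries, where KO 3 exceeded control 1. The log2 difference was -1.67 (SE 0.56, limma adjusted p = 0.417), and -0.53 without control 2 and 3 but -2.25 without KO 1 and 3. Pgls, the lactonase between these enzymes, measured 20.6, 42.7 and 26.4 FPKM and 14.4, 24.4 and 19.9 FPKM, with an estimate of -0.55 (SE 0.34) that was -0.27 without control 2 and -0.10 without control 2 and 3. G6pdx thus had all KO libraries below control 1, which held for neither Pgd nor Pgls.

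In the non-oxidative arm, Tkt (ENSMUSG00000021957), the transketolase, measured 67.8, 132 and 155 FPKM in the controls, against 46.1, 64.1 and 53.7 in the KO libraries. The groups did not overlap, with KO 2 just under control 1. The log2 difference was -1.03 (SE 0.35, limma adjusted p = 0.417), -0.32 without control 2 and 3 and -0.79 without KO 1 and 3. Without control 1 it was -1.39 and passed (limma adjusted p = 0.0486), when 1.55% of all genes passed lower. Here too the controls kept were only control 2 and 3, those with the highest neutrophil sums. Taldo1, the transaldolase, had the highest level of the 30 in 4 of the 6 libraries. It measured 161, 545 and 572 FPKM in the controls, against 162, 95.96 and 359 in the KO libraries, so KO 3 lay well above control 1. Its estimate of -1.05 (SE 0.67) was 0.14 without control 2 and 3 but -1.93 without KO 1 and 3.

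Rpe, the epimerase, measured 11.6, 26.9 and 31.3 FPKM in the controls, against 9.20, 12.8 and 7.06 in the KO libraries, a log2 difference of -1.11 (SE 0.42, limma adjusted p = 0.417), and -0.27 without control 2 and 3 but -0.70 without KO 1 and 3. Rpia, the isomerase that yields ribose phosphate, measured 11.1, 17.6 and 17.2 FPKM and 10.5, 10.7 and 12.6 FPKM, and its estimate of -0.39 (SE 0.26) was 0.02 without control 2 and 3.

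The phosphoribosyl pyrophosphate synthetases, which activate ribose for nucleotide synthesis, ordered the libraries differently. Prps1 measured 35.5, 25.2 and 17.3 FPKM in the controls, against 19.8, 43.4 and 18.9 in the KO libraries. Prps2 measured 16.7, 9.52 and 7.98 FPKM and 13.2, 21.7 and 13.4 FPKM. KO 2 was highest and control 1 second for both genes, the libraries that were also high for Pfkm. Their estimates were 0.03 (SE 0.41) and 0.49 (SE 0.35). Prps1 held 68.01%, 72.5% and 68.4% of the pair in the controls and 59.99%, 66.7% and 58.5% in the KO libraries, with no overlap and the smallest possible exact permutation p of 0.1 (adjusted p = 0.333).

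**Figure D3:**
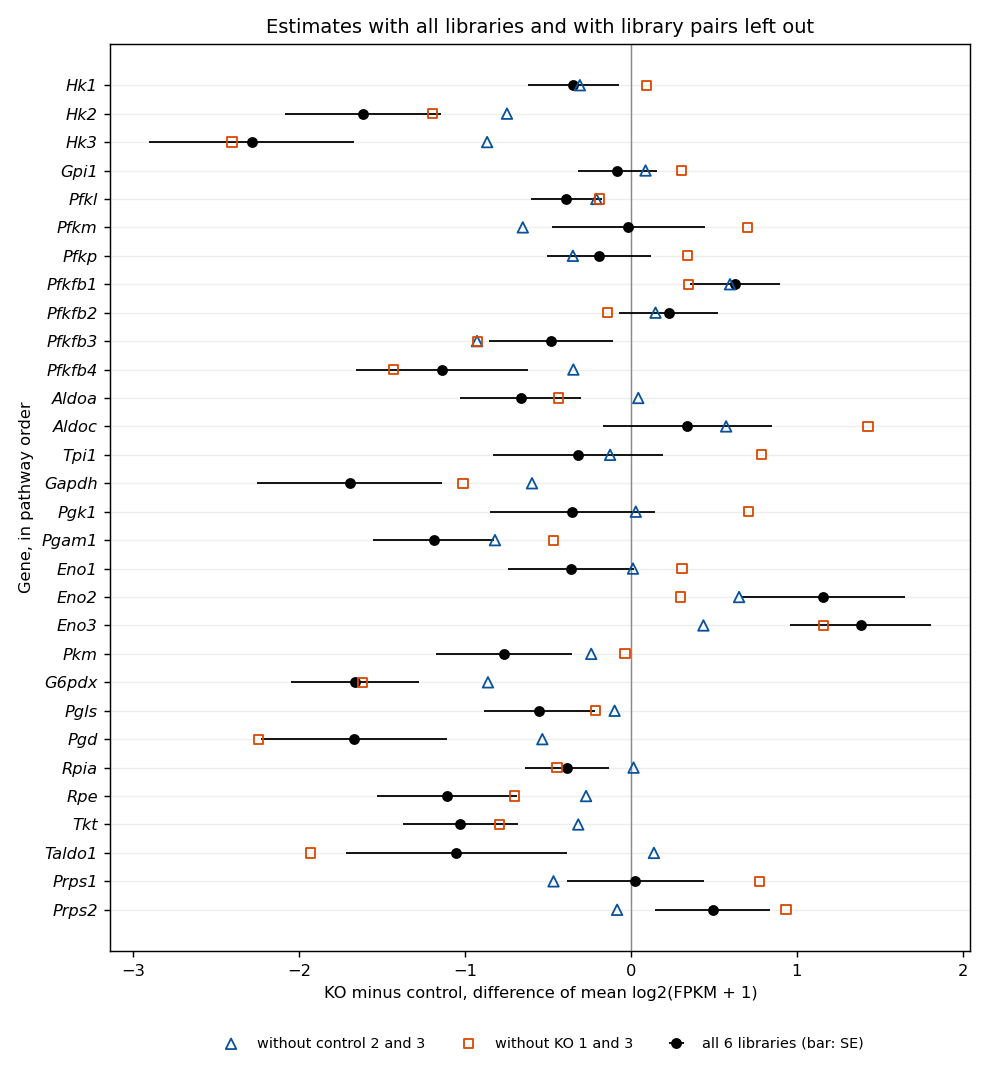
KO minus control difference of mean log2(FPKM + 1) for each enzyme; black points use all 6 libraries with bars of 1 SE, blue triangles leave out control 2 and 3, and orange squares leave out KO 1 and 3. Blue triangles lie nearer to 0 for Hk3, Pgd and Taldo1, while orange squares cross to the right of 0 for Tpi1, Pgk1 and Eno1.

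The libraries therefore split the enzymes in different ways. Control 2 and 3 were both above the other 4 libraries for 15 of the 30 enzymes, against 15.4% of all genes tested. KO 2 was the highest KO library for 19 of the 30, against 36.1% of all genes, including 14 of the 21 glycolysis genes and 3 of the 7 pentose phosphate enzymes. Summed over the 7 pentose phosphate enzymes, the level was 388, 1051 and 1202 FPKM in control 1, 2 and 3, against 318, 265 and 548 in KO 1, 2 and 3. Summed over the 21 glycolysis genes it was 1283, 2206 and 1948 FPKM and then 873, 1821 and 1008 FPKM. KO 2 was thus the lowest library for the first sum and overlapped the controls in the second.

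**Figure D4:**
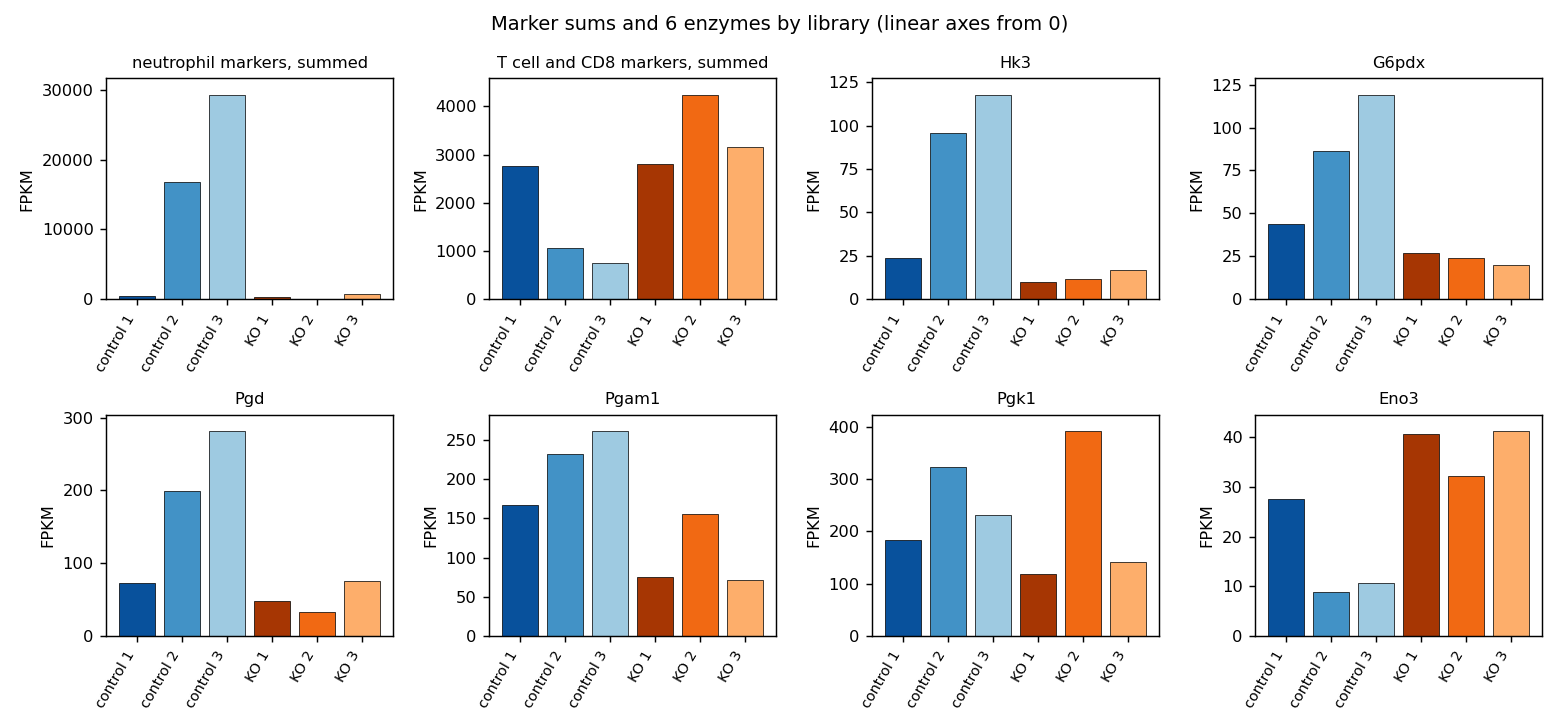
Summed FPKM of 12 neutrophil markers and of 16 T cell and CD8 markers, and FPKM of 6 enzymes, 1 bar per library on linear axes from 0. The neutrophil sum reaches 16770.5 and 29268 FPKM in control 2 and 3, where Hk3, G6pdx and Pgd are also highest, while Eno3 is lowest there and Pgk1 is highest in KO 2.

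Other genes of sugar phosphate metabolism were read from lists drawn up by function. Of 3 tested genes that oppose glycolytic flux or clear its side products, all had lower estimates and 0 passed. Tigar, a phosphatase that lowers fructose 2,6-bisphosphate and diverts sugar to the pentose phosphate pathway, measured 5.17, 5.24 and 4.96 FPKM in the controls, against 1.76, 3.50 and 2.64 in the KO libraries. The controls were nearly equal and every KO library lay below them, with KO 1 and 3 resting on 22 and 29 implied reads. Its log2 difference was -0.78 (SE 0.30, limma adjusted p = 0.417), -0.79 without control 2 and 3 and -0.44 without KO 1 and 3. G6pc3, the glucose 6-phosphatase subunit found in most tissues, measured 20.3 ± 3.49 and 16.2 ± 0.525 FPKM, and Pgp, a phosphatase of glycolytic side products, 50.4 ± 2.83 and 40.1 ± 7.94 FPKM (SD, n = 3 each).

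Of 7 further pentose phosphate genes tested, 3 had lower and 4 higher estimates, and 0 passed. H6pd, which runs the oxidative arm inside the endoplasmic reticulum, measured 10.7, 14.2 and 23.5 FPKM in the controls, against 7.04, 7.05 and 4.32 in the KO libraries, without overlap, a log2 difference of -1.22 (SE 0.36, limma adjusted p = 0.417). It was -0.74 without control 2 and 3, alongside -0.86 for its relative G6pdx. Prpsap2, a protein bound to the Prps enzymes, measured 22.3, 19.1 and 15.97 FPKM and 48.7, 20.1 and 60.7 FPKM, KO 1 and 3 being high. Its difference of 1.01 (SE 0.42) was 0.08 without KO 1 and 3. Without KO 2 it was 1.47 and passed (limma adjusted p = 0.0167), when 12.1% of all genes passed higher. Prpsap1 gave 0.33 (SE 0.22).

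Of 5 further glycolysis genes tested, 3 had lower and 2 higher estimates, and 0 passed. Adpgk, a glucokinase that uses ADP, measured 5.97, 9.62 and 30.4 FPKM in the controls, against 4.81, 3.98 and 3.84 in the KO libraries, with control 3 alone high, a difference of -1.35 (SE 0.56, limma adjusted p = 0.417). Leaving out control 3 gave -0.73, and leaving out control 2 and 3 gave -0.42. Gapdhs and Bpgm had estimates of 0.18 (SE 0.33) and -0.14 (SE 0.29).

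Of 12 tested genes on branches from the hexose and triose phosphates, 9 had lower and 3 higher estimates, and 0 passed. Pygl, the liver-type glycogen phosphorylase, measured 7.55, 65.4 and 124 FPKM in the controls, against 7.68, 2.26 and 7.68 in the KO libraries, and Ugp2, which makes the sugar donor for glycogen, 13.5, 42.996 and 40.4 FPKM and 11.5, 8.65 and 14.2 FPKM. For both genes control 1 lay with the KO libraries and control 2 and 3 far above. Their differences of -2.72 (SE 1.01) and -1.28 (SE 0.47) were -0.45 and -0.24 without control 2 and 3. Without control 1, which leaves only control 2 and 3 as controls, they were -3.86 and -1.80 and passed (limma adjusted p = 0.0417 and 0.0401). In that fit 1.55% of all genes passed lower. Pgm2, a phosphoglucomutase, measured 11.3, 17.6 and 15.4 FPKM and 8.01, 8.84 and 8.995 FPKM, without overlap, a difference of -0.69 (SE 0.24, limma adjusted p = 0.417).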

How the data were processed

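The authors' deposited values are FPKM, 1 per gene and library, a unit read from the values, since none is stated. HTSeq 0.6.0, Bowtie2 2.2.3, HISAT2 version 2 and the build mm8 are listed, with no role or order, per the submitters' processing notes; annotation and strand setting are not given in the sources used here. Symbols and exon lengths came from GENCODE M21 (35358 identifiers matched). FPKM times exon length gave whole reads within 0.02 for 92.1% to 93.4% of low values and for 26 of the 30 enzymes in all libraries (not Pfkm, Aldoa, Pgam1 and Tkt). The implied totals were 11840600, 15020100 and 15036300 fragments in the controls and 3420290, 14683400 and 3004540 in KO 1, 2 and 3. A floor of 3 reads in 1 kb is 0.200 to 0.253 FPKM in the controls and KO 2, 0.877 in KO 1 and 0.998 in KO 3, for counting error only.

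Genes reaching 1 FPKM in 3 or more libraries (13956, all 30 enzymes) were tested as log2(FPKM + 1) with limma 3.58.1 (R 4.3.3), group as the only term, an intensity trend and Benjamini-Hochberg adjustment at 0.05 over all genes. Members, lists and settings were chosen with earlier results of these data known. Every enzyme is accounted for; per pathway list, up to 3 genes with the smallest p are named. Of 117 listed pathway and marker entries, 3 were absent. Tables and plots used Python 3.11.15, pandas 2.3.3, scipy 1.17.1 and matplotlib 3.10.9. A marker gene is not reported here.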

Additional observations from a re-analysis of the deposited data

How the results depend on the processing

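With limma, alternatives other than leaving out control 1 or KO 2 called 0 genes. Leaving out 1 library gave 0 to 1821 genes (363 without control 1, 1821 without KO 2) and 0 to 4 enzymes: Hk3, G6pdx, Tkt and Eno3 without control 1, Pgam1 and Eno2 without KO 2. Without control 1 the controls kept were those with the highest neutrophil sums, and without KO 2 the KO libraries kept were those of lowest depth. The median difference of the enzymes ranged from -0.66 to -0.33 with 1 library left out and was -0.16 without KO 1 and 3. Between 3 and 11 of 15 isoform shares did not overlap with 1 library left out (11 without control 1, 7 without KO 2 or KO 3, 3 with all). Absence of overlap has an exact permutation p of 0.1 with all libraries and 0.2 with 1 left out, so it is then easier to reach. Shares of a family also depend on each other, and the 3 include Pfkfb1, whose share is a description only. These counts are therefore no support for a difference. The sign of the estimate held under all 15 alternatives for 16 of 30 enzymes (Hk2, Hk3, Pfkl, Pfkfb1, Pfkfb3, Pfkfb4, Gapdh, Pgam1, Eno2, Eno3, Pkm, G6pdx, Pgls, Pgd, Rpe and Tkt). It turned without control 2 and 3 for Gpi1 (0.087), Aldoa (0.044), Pgk1 (0.029), Eno1 (0.012), Rpia (0.015), Taldo1 (0.14), Prps1 (-0.47), Prps2 (-0.084) and Gapdhs (-0.026). It turned without KO 1 and 3 for Hk1 (0.095), Gpi1 (0.31), Pfkm (0.70), Pfkp (0.34), Pfkfb2 (-0.14), Tpi1 (0.79), Pgk1 (0.71), Eno1 (0.31), Bpgm (0.22), Eno1b (0.28) and Tpi-rs11 (1.13). It turned after quantile normalization for Prps1 (-0.14) and Gapdhs (-0.089), and with limma-voom on implied reads for Pfkm (0.42), Bpgm (0.0077) and Tpi-rs11 (0.11). With 1 library left out, the sign also turned for Gpi1 (-0.28 to 0.055), Pfkm (-0.37 to 0.30), Pfkp (-0.46 to 0.063), Aldoc (-0.20 to 0.69), Prps1 (-0.35 to 0.27), Gapdhs (-0.044 to 0.29), Bpgm (-0.32 to 0.0061) and Tpi-rs11 (-1.20 to 0.24), and for the shares of Pfkm (-0.28 to 4.68 percentage points) and Pfkfb3 (-4.20 to 10.4 percentage points). The cause was not tested. limma-voom tested 13934 genes and called 0, and 1414 had an unadjusted p under 0.05, against 1646 in the test reported.

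The replicate number as a block called 0 genes. Same-numbered libraries had r of deviations across genes of 0.11, 0.02 and 0.02, and libraries with unlike numbers -0.21 to 0.14. The numbers were treated as names of libraries only, and these r values cannot exclude a pairing. Depth limits Hk2, Pfkm, Pfkfb1, Pfkfb2, Pfkfb4 and Aldoc in KO 1 and 3, at 8 to 60 implied reads.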

Other observations

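Of 4 tested copies named after an enzyme, 3 had lower estimates and 0 passed limma. Pgam1-ps2, a processed pseudogene of Pgam1, measured 28.7, 26.02 and 26.1 FPKM in control 1, 2 and 3, against 8.03, 19.9 and 9.57 in KO 1, 2 and 3, with KO 2 the highest KO library, as for Pgam1 itself, and KO 1 and 3 resting on 21 and 22 implied reads. Its log2 difference was -1.15 (SE 0.35, limma adjusted p = 0.417), beside -1.19 for Pgam1, -1.24 without control 2 and 3 and -0.42 without KO 1 and 3. Without KO 2 it was -1.51 and passed (limma adjusted p = 0.00938), when 0.960% of all genes passed lower. Eno1b, a copy of Eno1, measured 16.9, 28.8 and 20.7 FPKM and 14.3, 26.6 and 11.2 FPKM, with an estimate of -0.39 (SE 0.37) beside -0.36 for Eno1. Tpi-rs11, a copy of Tpi1, measured 6.81, 9.23 and 2.57 FPKM and 0.943, 13.4 and 3.22 FPKM, with an estimate of -0.42 (SE 0.79), but KO 1 and 3 rest on 1 and 3 implied reads, within the floor of 3. Pgk1-rs7, a copy of Pgk1, measured 10.2, 12.1 and 7.42 FPKM and 8.15, 21.5 and 6.63 FPKM, with an estimate of 0.11 (SE 0.46) beside -0.35 for Pgk1. Reads that fit a gene and its copy equally well cannot be told apart in these values, so levels of Pgam1, Eno1, Tpi1 and Pgk1 are uncertain to that extent.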
